A study of Mus musculus with 33 samples.

Results

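Of the 3908 guide RNAs with a genomic position in the Tdgf1 library of this CRISPR mutation screen, 1025 (26.2%) targeted intergenic DNA beyond the 3' end of the gene, in 2 intervals that flank a stretch left out here. They were chosen by position alone: a guide belonged to the group when the midpoint of its deposited target interval lay in chr9:110926151-110932999 (the far interval, 659 guides) or in chr9:110936000-110939607 (the near interval, 366 guides). Positions are on mm10, per the submitters' processing notes, and no count entered the choice. The near interval ends at the annotated 3' end of Tdgf1, whose span in the RefSeq gene table (GRCm38.p6) is chr9:110939608-110946158 and whose promoter lies at the high end of that span. No gene of that table overlapped either interval. The closest gene on the far side was Fam240a, which ended 9253 bp before the far interval began.

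Tdgf1, also called Cripto, is a membrane-anchored co-receptor for Nodal signals and is expressed in pluripotent cells. Genes active in embryonic stem cells are often controlled by enhancers, stretches of DNA outside the promoter that bind transcription factors and can lie on either side of the gene. In a tiling screen of this kind, Cas9 cuts at the site named by the guide and repair leaves small insertions or deletions. A guide whose mutations lower the reporter becomes more frequent among cells with less GFP, and a guide without such an effect becomes a smaller share of them.

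All libraries used came from mouse embryonic stem cells whose Tdgf1 transcription start site was replaced by GFP and whose ROSA26 locus carried a placeholder guide RNA. The cells were grown with serum, LIF, a GSK-3 inhibitor and UO126, an inhibitor of MEK. After the library had been electroporated, genomic DNA was taken from unsorted cells (bulk) and from GFP-medium and GFP-negative sorts, and its guides were counted. There were 3 libraries of each population, and a replicate number stands for 1 replicate of the reporter line in the labels. The labels do not say how many cells were sorted, nor whether each replicate was a culture of its own. The p-values therefore speak of the spread among these libraries alone, and that spread may be technical.

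Bulk libraries held 107960 to 123840 guide counts, GFP-medium libraries 379072 to 461825 and GFP-negative libraries 608532 to 719247. A count of 0 allows up to 3 counts in a library, which is 24.2 to 27.8 CPM (counts scaled to a common library total) in bulk. For GFP-medium libraries it is 6.50 to 7.91 CPM and for GFP-negative libraries 4.17 to 4.93 CPM. Such limits cover counting error only, since PCR counts without molecular identifiers are not independent molecules. The positive controls behaved differently in the sorted populations: the 10 GFP-targeting guides took 0.210% ± 0.0289 of bulk, 0.200% ± 0.189 of GFP-medium and 6.52% ± 1.94 of GFP-negative counts (SD, n = 3). The 123 guides within 500 bp of the 5' end of Tdgf1 took 3.49% ± 0.0499, 24.5% ± 2.56 and 12.6% ± 3.34 of counts (SD, n = 3). Every value below is a share of the guides counted in a library, so guides that gain a share lower the share of all others.

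The 2 intervals were tiled densely. In the far interval, 542 guides were listed with 23 bp and 117 with 22 bp, the median distance between neighbouring starts was 5 bp, and 91.3% of guides overlapped the next one. The largest distance without a guide start was 551 bp, from 110929426 to 110929977. In the near interval, 301 guides had 23 bp and 65 had 22 bp, the median distance was 6 bp, 89.9% overlapped the next one, and the largest distance was 250 bp, from 110938825 to 110939075. Neighbouring guides therefore share most of their target sequence and are not independent measurements of a site.

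Part of the listed guides left no trace in any library. Of the 1025 guides 107 (10.4%) had no count in any of the 9 libraries, 59 of 659 (8.95%) in the far and 48 of 366 (13.1%) in the near interval. Among the 2883 other positioned guides 34 (1.18%) had none. The absent guides lay side by side: all 7 runs of at least 5 neighbouring guides without a count in the whole library fell in the 2 intervals and together held 59 guides. The longest run, 15 guides, covered 110926153 to 110926261 at the far end of the far interval, and the next, 12 guides, covered 110936663 to 110936809 in the near interval. Within the 2 intervals 30 of 182 guides of 22 bp (16.5%) and 77 of 843 of 23 bp (9.13%) had no count. These 107 guides give no value at their positions, and why they had no count was not tested.

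In bulk, the far interval took 13.4%, 14.6% and 14.1% of counts in replicates 1, 2 and 3, a mean of 14.1% ± 0.611 (SD, n = 3). In GFP-medium cells it took 4.99%, 2.69% and 2.55%, a mean of 3.41% ± 1.37. In GFP-negative cells it took 9.13%, 8.02% and 4.70%, a mean of 7.28% ± 2.31. Both sorted populations lay below bulk in all 3 libraries, and the GFP-negative and GFP-medium ranges overlapped. The log2 ratio of the mean shares was -2.05 for GFP-medium against bulk, -0.95 for GFP-negative against bulk and 1.10 for GFP-negative against GFP-medium.

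The near interval took 8.10%, 7.98% and 7.91% of bulk counts, a mean of 8.0% ± 0.0914 (SD, n = 3). It took 2.98%, 1.89% and 2.61% of GFP-medium counts (2.49% ± 0.555) and 4.62%, 4.17% and 4.73% of GFP-negative counts (4.51% ± 0.300). Here the 3 populations did not overlap, with bulk highest and GFP-medium lowest. The log2 ratios were -1.68 for GFP-medium against bulk, -0.83 for GFP-negative against bulk and 0.86 for GFP-negative against GFP-medium. With 3 libraries against 3, the smallest p of a 2-sided exact permutation test is 0.1, and it was reached by 5 of the 6 interval comparisons (adjusted p = 0.120 over the 6). The sixth, far interval in GFP-negative against GFP-medium cells, gave an exact p = 0.200.

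Much of this difference depended on what the share was taken of. With the GFP-targeting guides and all guides within 2 kb of the 5' end left out of the total, the far interval took 16.2% ± 0.672 of bulk, 8.53% ± 1.74 of GFP-medium and 12.5% ± 2.86 of GFP-negative counts (SD, n = 3), and the log2 ratios to bulk became -0.93 and -0.38. The near interval took 9.21% ± 0.137, 6.43% ± 1.29 and 7.91% ± 1.16, with log2 ratios to bulk of -0.52 and -0.22. On this scale the near interval's GFP-negative libraries overlapped with bulk (exact permutation p = 0.300), while the far interval's did not. Both intervals kept a lower mean share than in bulk in either sorted population.

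The intervals were also set against intergenic guides on the promoter side of the gene. The 343 guides beyond 2 kb upstream of the 5' end and before Lrrc2, the next gene, took 9.44% ± 0.0667 of bulk, 8.32% ± 3.31 of GFP-medium and 10.6% ± 0.345 of GFP-negative counts (SD, n = 3). Without promoter and GFP-targeting guides in the total, they took 10.9% ± 0.0676, 22.1% ± 10.4 and 18.6% ± 2.62, so on that scale the means of the upstream guides were above bulk while those of the intervals were below it. The difference itself was measured as the log2 ratio of each interval's share to the upstream share within a library. For the far interval this ratio was 0.57 ± 0.07 in bulk, -1.29 ± 0.91 in GFP-medium and -0.59 ± 0.55 in GFP-negative libraries, a difference from bulk of -1.86 and -1.17. For the near interval it was -0.24 ± 0.02, -1.70 ± 0.86 and -1.23 ± 0.11, a difference of -1.46 and -0.99. In these 4 comparisons the sorted libraries all lay below the bulk libraries (exact permutation p = 0.100, the smallest possible, and adjusted p = 0.240 over 12 such comparisons).

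The 251 guides between the intervals, a stretch that contains the deep-sequenced sites the labels call Tdgf1 URE (not analysed here), were closer to both intervals. They took 6.56% ± 0.216 of bulk, 1.81% ± 1.09 of GFP-medium and 4.37% ± 1.03 of GFP-negative counts (SD, n = 3). The log2 ratio of the far to this middle share was 1.10 ± 0.10 in bulk, 1.08 ± 0.77 in GFP-medium and 0.71 ± 0.23 in GFP-negative libraries. Only the GFP-negative libraries lay wholly below bulk, with a difference of -0.39 (exact permutation p = 0.100, adjusted p = 0.240). The near to middle ratio was 0.29 ± 0.05, 0.67 ± 1.14 and 0.07 ± 0.44 and overlapped between all populations. A difference between the intervals and the stretch they flank was therefore not shown at this number of libraries.

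Most of the 1025 guides were seen in bulk and few in sorted cells. At an equal depth of 107960 counts, the expected share of the guides with at least 1 count was 82.3%, 84.9% and 80.1% in the bulk libraries, 10.2%, 15.3% and 6.73% in GFP-medium and 16.6%, 35.5% and 14.9% in GFP-negative libraries. The sorted libraries lay far below bulk without overlap, and GFP-negative replicate 2 held more of the guides than any other sorted library. The mean difference to bulk was -71.7 percentage points for GFP-medium and -60.1 for GFP-negative cells (exact permutation p = 0.100 each, adjusted p = 0.150 over 3 comparisons). For the other positioned guides the values were 94.2%, 95.2% and 91.1% in bulk, 22.2%, 32.4% and 14.4% in GFP-medium and 30.3%, 54.9% and 25.7% in GFP-negative libraries. The sorted libraries thus lay far below bulk for the other positioned guides as well. In each of the 9 libraries, bulk included, a smaller share of the guides downstream of Tdgf1 than of the other positioned guides was detected. These shares include the guides without a count in any library, 10.4% of the 1025 and 1.18% of the others. Such guides lower the share in every library, so the comparison of the 2 groups is not one of sorting alone. Without thinning, detection was 80.1% to 85.3%, 7.32% to 17.5% and 17.4% to 39.3% of the 1025 guides.

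Within a sorted library, fewer guides made up 50% of an interval's counts than within a bulk library. In the far interval, 50% of the interval's counts came from 119 to 139 guides in a bulk library, from 3 to 9 guides in a GFP-medium one and from 8 to 36 guides in a GFP-negative one. In the near interval bulk libraries needed 60 to 70 guides, GFP-medium libraries 3 to 7 and GFP-negative libraries 6 to 19. The most counted guide alone held up to 25.4% of the far interval's and up to 29.1% of the near interval's GFP-medium counts, against at most 1.18% and 2.05% in bulk. Of the 251 guides between the intervals, 59 to 68 made up 50% of their bulk counts, 3 to 6 of GFP-medium and 3 to 15 of GFP-negative counts. For the 343 upstream intergenic guides it was 73 to 77, 6 to 8 and 10 to 31. The concentration was therefore not particular to the 2 intervals.

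The guides that appeared in sorted cells rarely recurred. In the far interval 474 of 659 guides had no count in any GFP-medium library, 149 had counts in 1 library, 33 in 2 and 3 in all 3. In GFP-negative cells, 318 had none, 213 were in 1 library, 98 in 2 and 30 in all 3. In the near interval, of 366 guides, 260 were in no GFP-medium library and 7 in all 3, and 185 were in no GFP-negative library and 20 in all 3. Bulk held 501 far and 264 near guides in all 3 libraries. In all 3 GFP-medium and all 3 GFP-negative libraries were 0.455% and 4.55% of far and 1.91% and 5.46% of near guides. For the 251 guides between the intervals it was 0.398% and 3.19%, and for the 343 upstream intergenic guides 6.12% and 17.2%. Low recurrence was therefore not particular to the 2 intervals.

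The same guide was often found in both gates of 1 replicate. Of the 117 guides detected in GFP-medium replicate 1, 70.9% were also in GFP-negative replicate 1. For replicate 2 it was 86.0% of 179 and for replicate 3 it was 82.7% of 75. Between different numbers the share ran from 29.9% to 72.0% of the GFP-medium guides, the highest being with GFP-negative replicate 2, the library with the most guides. Put the other way, 34.8% to 40.7% of the GFP-negative guides were in the same-numbered GFP-medium library and 13.4% to 34.3% in another. The measurements in the 2 gates are for this reason not independent. The overlap was counted for the 2 intervals alone. Across all 3918 guides, deviations of same-numbered libraries from their population means correlated between the gates with r = 0.40 to 0.48. The dependence was therefore not particular to the 2 intervals.

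Single guides were then tested with edgeR's quasi-likelihood test over the whole library, with Benjamini-Hochberg adjustment over the 3172 guides that passed the filter on low counts. Of the 1025 guides 714 passed, 470 far and 244 near, and 311 did not. The minimum is 10 counts at the median library total, so fewer suffice in the smaller bulk libraries: a guide with 3, 4 and 10 bulk counts passed. Most passed through bulk: 687 reached the minimum in all 3 bulk libraries, and 265 of these reached it in no sorted library. A guide of the latter kind had to differ from bulk, so the counts that follow describe the guides and are not taken as support.

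In GFP-negative against bulk, 222 of the 714 tested guides were called lower, 149 far (31.7% of those tested) and 73 near (29.9%), beside 22.2% of all tested guides in the library. With edgeR none was called higher, beside 0% of all tested guides. None was higher at an unadjusted p under 0.05, beside 5 of all tested guides. DESeq2 called none of the 714 higher, beside 1.26% of all tested guides. At an unadjusted p under 0.05 DESeq2 had 2 of the 714 higher, beside 77 of all tested guides. With limma-voom none was called higher, beside 0 of all tested guides. The calls came almost wholly from absence: 200 of the 222 were absent from all 3 GFP-negative libraries. In the whole library 676 of 3172 tested guides were absent there and 705 were called lower. How many were both was not counted, so the share of absent guides is not read as a trait of the 2 intervals. Same-numbered libraries come from the same replicate of the line, and with that number as a block edgeR called 0 guides lower, beside 0 in the whole library. At an unadjusted p under 0.05 the blocked fit had 289 of the 714 lower, beside 1006 of all 3172 tested guides. Without bulk replicate 1 or 2 the fit without a block called 136 and 144 guides lower, and without GFP-negative replicate 2 it called 401.

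In GFP-medium against bulk, 379 of the 714 were called lower, 255 far (54.3%) and 124 near (50.8%), beside 40.3% of all tested guides. None was called higher with edgeR, beside 0% of all tested guides, with DESeq2, beside 2.62%, or with limma-voom, and none reached an unadjusted p under 0.05 in that direction with these tools. Of all tested guides 7, 105 and 0 reached it with edgeR, DESeq2 and limma-voom. Of the 379 guides 367 had no count in any GFP-medium library. Of all 3172 tested guides 1456 had none there, and how many of these were called lower was not counted. With the replicate number as a block 374 were called, beside 1254 of all 3172 tested guides. Leaving out bulk replicate 1, 2 or 3 left 200, 242 and 216 calls, and leaving out any 1 of the GFP-medium libraries left 0. Of the guides called lower 217 were called in both sorted populations, which share their bulk libraries. In the whole library 705 and 1278 of 3172 tested guides were called lower in GFP-negative and GFP-medium cells. Their overlap was not counted, so that of the 2 intervals is not read as a trait of these guides.

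The sizes are given as a description, since guides that reached the minimum in bulk alone had to be lower: they were 265 of the 714 and 841 of all 3172 tested guides. With guides absent from a sorted population set to the floor of 3 counts per library, the median log2 ratio of mean CPM to bulk was -3.23 for the 714 and -1.92 for all tested guides in GFP-negative cells. In GFP-medium cells it was -4.60 and -4.01. At that floor stood 29.4% and 60.2% of the 714, and 21.3% and 45.9% of all tested guides. The fitted medians, which are no bounds for absent guides, were -2.98 and -1.67 in GFP-negative and -8.49 and -6.44 in GFP-medium cells. Other scalings of the edgeR fit moved the median of all tested guides to between -2.74 and -1.29 in the first comparison and to between -7.44 and -5.52 in the second. The median of the 714 minus that of all tested guides was -1.30 and -2.05 in the 2 comparisons, -0.91 and -0.82 with the replicate number as a block and -0.80 and -0.89 with limma-voom.

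GFP-negative and GFP-medium cells were not separated guide by guide with edgeR: 0 of the 714 guides were called in either direction, as in the whole library (0% each way). Before adjustment 183 were higher and 18 lower with p under 0.05, beside 715 and 63 of all 3172 tested guides. DESeq2 called 73 higher, beside 9.46% of all tested guides, and 11 lower, beside 1.39%. The 73 were 46 far and 27 near guides. The DESeq2 shares, 10.2% and 1.54% of the 714, were near those of the whole library. With limma-voom 1 guide was called higher, beside 1 of all 3172 tested guides.

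The order of the libraries was also counted for all guides, without a filter. All 3 GFP-negative libraries lay below all 3 bulk libraries for 310 of 659 far (47.0%) and 154 of 366 near guides (42.1%), beside 42.0% of all 3918 guides. For GFP-medium it was 410 far (62.2%) and 216 near guides (59.0%), beside 58.3%. A guide without a count in any library cannot be ordered, and 107 of the 141 such guides with a position lay in the 2 intervals. Among guides with a count, the shares were 51.7% of 600 far and 48.4% of 318 near guides in GFP-negative cells, against 43.6% of all 3777, and 68.3% and 67.9% in GFP-medium cells, against 60.5%. All 3 GFP-negative libraries lay above bulk for 3 of the 1025 guides (0.293%), beside 1.51% of all guides, and all 3 GFP-medium libraries for 0, beside 0.740%. Between the gates, 20 of the 1025 (1.95%) were above GFP-medium in all GFP-negative libraries, beside 2.12%, and 1 (0.0976%) below, beside 0.281%.

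Counts were summed over 1-kb tiles to see whether the loss was even along the intervals. Tiles are named by their first base, and those at interval ends are shorter. The same edgeR test on 43 tiles of the library, scaled by total counts, called 9 of the 11 tiles of the 2 intervals lower in GFP-medium than in bulk, beside 44.2% of all tiles, and none higher, beside 11.6%. In GFP-negative against bulk it called 0 of the 11 lower, beside 0%, and 0 higher, beside 9.30%. Before adjustment 3 of the 11 were lower at p under 0.05. The same count over all 43 tiles was not made, so this is not read as a result about these tiles. In GFP-negative against GFP-medium it called 3 of the 11 higher, beside 20.9%, and 0 lower, beside 6.98%. No tile of either interval was called higher in a sorted population than in bulk.

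The strongest contrast along the far interval was in its middle. The tile at 110929000, which holds 34 guides around the 551 bp without a guide, took 0.750%, 0.905% and 0.870% of bulk counts. It took 0.0364%, 0.0433% and 0.0178% of GFP-medium and 1.49%, 0.779% and 0.366% of GFP-negative counts. GFP-medium libraries were lowest by far, while GFP-negative libraries stood on both sides of bulk. The fitted log2 change was -4.69 against bulk in GFP-medium cells (edgeR adjusted p = 0.00167), the lowest of the 43 tiles, and 0.06 in GFP-negative cells (adjusted p = 0.962), where it was -0.60 without the most counted guide of each library.

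Against GFP-medium, the same tile was higher in GFP-negative cells by 4.76 on the log2 scale (edgeR adjusted p = 0.00276). The guide at chr9:110929213-110929235 supplied 56.6% of the tile's counts in GFP-negative replicate 1, and 1 guide supplied 23.5% and 32.0% in the others. With the most counted guide of each tile left out of each library, the difference was 5.12 (adjusted p = 0.00391). Without any 1 of the 9 libraries the adjusted p stayed at or under 0.0118. Because only 9 of the 34 guides were seen in GFP-medium cells and 23 in GFP-negative cells, the value rests on few guides.

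In 2 other far tiles, GFP-medium cells were likewise below both bulk and GFP-negative cells, but mean GFP-negative shares were below bulk. The tile at 110927000 (133 guides) took 2.76%, 3.32% and 3.06% of bulk, 0.556%, 0.426% and 0.314% of GFP-medium and 3.00%, 1.61% and 0.773% of GFP-negative counts. It was lower in GFP-medium than in bulk by a log2 change of -2.82 (edgeR adjusted p = 0.00132) and higher in GFP-negative than in GFP-medium cells by 2.06 (adjusted p = 0.00857). The tile at 110930000 (125 guides) took 2.47%, 2.26% and 2.34%, then 0.454%, 0.279% and 0.178%, then 0.915%, 1.42% and 0.684% of the same libraries. Its log2 changes were -2.96 (adjusted p = 7.02e-04) and 1.73 (adjusted p = 0.0147). The second of these missed the threshold without GFP-negative replicate 2 (1.40, adjusted p = 0.0812). It also missed it when tiles were scaled without promoter and GFP-targeting guides (1.21, adjusted p = 0.0577).

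The tile at 110928000 (119 guides) took 2.09%, 2.14% and 2.12% of bulk counts, 0.962%, 0.194% and 0.194% of GFP-medium and 1.52%, 0.995% and 0.723% of GFP-negative counts. It was called lower in GFP-medium cells (-2.23, edgeR adjusted p = 0.0204). Its difference between the gates, 1.26, did not pass (adjusted p = 0.215). In GFP-medium replicate 3, 82.7% of the tile's counts came from 1 guide.

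At the far end, the tile at 110926000 (84 guides, 15 of them without a count in any library) took 1.75%, 1.94% and 1.97% of bulk, 0.954%, 0.389% and 0.0516% of GFP-medium and 0.422%, 0.773% and 0.266% of GFP-negative counts. Both sorted populations lay below bulk, and this was the lowest of all 43 tiles in GFP-negative against bulk. The log2 change there was -1.95 (edgeR adjusted p = 0.172), and that in GFP-medium cells was -2.02 (adjusted p = 0.0582), so neither passed. With the replicate number as a block, the GFP-medium change was called (-2.59, adjusted p = 0.0259). The difference between its shares in the 2 gates was close to 0 (0.07, adjusted p = 0.951).

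The 2 far tiles closest to the middle stretch had the smallest differences of the far interval in GFP-medium cells. The tile at 110931000 (72 guides) took 1.64%, 2.03% and 1.95% of bulk, 0.836%, 0.689% and 0.827% of GFP-medium and 0.633%, 1.25% and 0.932% of GFP-negative counts. The tile at 110932000 (92 guides) took 1.97%, 2.05% and 1.84%, then 1.19%, 0.666% and 0.965%, then 1.15%, 1.19% and 0.955%. In GFP-medium cells they were lower than in bulk by log2 changes of -1.26 (edgeR adjusted p = 0.0342) and -1.05 (adjusted p = 0.0444). The second was not called with the replicate number as a block (-1.07, adjusted p = 0.0655). Scaled by a trimmed mean over tiles instead of total counts, these 2 changes became 0.05 and 0.21, so their direction holds only relative to the whole library.

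The near interval was more even. From its low end to the gene, the tiles at 110936000, 110937000, 110938000 and 110939000 (104, 124, 77 and 61 guides) took 2.03% ± 0.127, 2.49% ± 0.0508, 2.20% ± 0.00410 and 1.28% ± 0.0268 of bulk counts (SD, n = 3). In GFP-medium cells they took 0.836% ± 0.556, 0.632% ± 0.414, 0.682% ± 0.420 and 0.340% ± 0.280. In GFP-negative cells they took 1.14% ± 0.430, 1.21% ± 0.356, 1.44% ± 0.532 and 0.709% ± 0.0905. All 4 tiles had every sorted library below every bulk library.

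The log2 changes in GFP-medium against bulk were -1.28, -1.98, -1.69 and -1.91, of which the last 3 were called (edgeR adjusted p = 0.0239, 0.0346 and 0.0413) and the first was not (0.0582). Under the trimmed mean over tiles they became 0.05, -0.66, -0.48 and -0.74 and none was called. In GFP-negative against bulk they were -0.83, -1.04, -0.61 and -0.85, with adjusted p from 0.269 to 0.465, and the third became 0.16 under the trimmed mean. Between the gates they were 0.45 to 1.08, with adjusted p from 0.241 to 0.583, and the lowest became -0.18 under the trimmed mean. The tile next to the gene body therefore did not stand apart from the others of the interval. The first tile also held 27 guides without any count, the most of the 11.

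The 9 tile calls in GFP-medium cells depended on the scale and on single libraries. Under either of the 2 other scalings, the trimmed mean over tiles or a total without promoter and GFP-targeting guides, 3 tiles were called (110927000, 110929000 and 110930000, all far). Without bulk replicate 1, 2 or 3 there were 5, 4 and 4 calls, and without GFP-medium replicate 2 there were 5. Without GFP-medium replicate 1 or 3, 1 and 3 tiles were called lower in GFP-negative against bulk, and without GFP-medium replicate 1 the tiles called higher between the gates were 5 in place of 3.

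Among guides called lower, those with the largest folds were gone or nearly gone from the sorted population compared. Their mean bulk levels ran from 196 to 1491 CPM, beside tile medians of 139.8 to 247 CPM, so not all were abundant. The fold of an absent guide is only a bound, set at 3 counts per library. Guides with 1 count can therefore rank ahead of absent guides that may have fallen further. Guides that passed the filter through bulk alone had to be lower, so their p-values describe them and are not taken as support. In the far interval, the guide at chr9:110928451-110928472, which lies 11146 bp beyond the 3' end, had 56, 42 and 63 counts in bulk, none in GFP-medium and 1, 0 and 0 in GFP-negative libraries. Its summed counts gave an 889-fold lower value in GFP-negative cells, with an exact 95% counting interval of 157 to 35346 (edgeR adjusted p = 0.0478). It was at least 66.0-fold lower in GFP-medium cells (adjusted p = 0.0277). The guide at chr9:110932678-110932700 had 31, 51 and 35 counts in bulk and 1 in all sorted libraries together, in GFP-negative replicate 3, a 646-fold lower value (interval 114 to 25745, adjusted p = 0.0390). The guide at chr9:110932495-110932517 had 33, 41 and 13 bulk counts and likewise 1, a 481-fold lower value (interval 84.0 to 19199, adjusted p = 0.0277).

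In GFP-medium cells the largest fold among far guides called lower, with absent guides ranked at their bound, belonged to chr9:110927408-110927430. It had 115, 113 and 117 counts in bulk and 0, 0 and 1 in GFP-medium libraries, a 1267-fold lower value (exact 95% counting interval 226 to 50171, edgeR adjusted p = 0.0301). In GFP-negative libraries it had 585, 64 and 14 counts, or 953, 89.0 and 23 CPM against 961, 912 and 1084 CPM in bulk. Replicate 1 was at the bulk level and the others below it, and the mean was 2.78-fold lower without passing the test (adjusted p = 0.882). Similar falls were seen for chr9:110927527-110927549, with 20, 66 and 33 bulk counts against 1 (437-fold, interval 76.9 to 17399), and for chr9:110932145-110932167, with 15, 33 and 35 against 1 (305-fold, interval 53.2 to 12179). The latter had no count in GFP-negative cells, where it was at least 51.2-fold lower (adjusted p = 0.0144).

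In the near interval, the guide at chr9:110936814-110936836 was the most abundant of all in bulk, with 199, 193 and 135 counts (1491 ± 214 CPM, SD, n = 3), and had no count in any of the 6 sorted libraries. It was at least 319.7-fold lower in GFP-negative cells (edgeR adjusted p = 0.0329) and at least 212-fold lower in GFP-medium cells (adjusted p = 0.0296). It directly follows the run of 12 guides without any count. The second most abundant, chr9:110937036-110937058, had 148, 153 and 62 bulk counts and also none in sorted libraries (at least 218-fold and at least 144-fold lower, adjusted p = 0.0377 and 0.0323). Both guides passed the filter through bulk alone and had to be lower, so their p-values are not taken as support.

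The other near guides named by size had 1 or 2 counts in a sorted population. For GFP-negative cells these were chr9:110937165-110937187 (24, 28 and 19 bulk counts, 392-fold lower, exact 95% counting interval 68.2 to 15708), chr9:110937888-110937910 (49, 44 and 38, 362-fold, interval 98.2 to 3019) and chr9:110936324-110936346 (18, 29 and 22, 381-fold, interval 66.2 to 15272). For GFP-medium cells they were chr9:110937202-110937224 (33, 44 and 13, 330.4-fold, interval 57.8 to 13194) and chr9:110937502-110937524 (22, 33 and 42, 178-fold, interval 48.0 to 1491). Their edgeR adjusted p-values ran from 0.0194 to 0.0461. The counting intervals leave out the spread between replicates. With the replicate number as a block, none of the 12 named guides called lower in GFP-negative cells was called (adjusted p = 0.0936 to 0.126), and 9 of the 16 called lower in GFP-medium cells were. The 7 lost were those of chr9:110926151-110926173 (0.0752), chr9:110927408-110927430 (0.0509), chr9:110927527-110927549 (0.0620), chr9:110932145-110932167 (0.0573), chr9:110937202-110937224 (0.0534), chr9:110937502-110937524 (0.0804) and chr9:110938782-110938804 (0.0530).

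Among the other guides named, the most abundant far guide, chr9:110927830-110927852, had 72, 141 and 134 counts in bulk, 0, 13 and 0 in GFP-medium and 664, 124 and 9 in GFP-negative libraries. Its mean was 86.9-fold lower than in bulk in GFP-medium and 2.35-fold lower in GFP-negative cells, and neither passed (edgeR adjusted p = 0.112 and 0.921). The guides at the interval ends also differed. At the far end, chr9:110926151-110926173 had 3, 4 and 10 counts in bulk and none in sorted cells, at least 10.7-fold lower in GFP-negative cells (adjusted p = 0.00506). It passed the filter through bulk alone and had to be lower, and its 3 counts in bulk replicate 1 equal the floor. Its p-value is therefore not taken as support. At the other end of the far interval, chr9:110932734-110932756 had 69, 42 and 15 counts in bulk, 2, 72 and 0 in GFP-medium and 0, 120 and 0 in GFP-negative libraries, with no call.

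The guide closest to the gene, chr9:110939575-110939596, has its midpoint 22.5 bp beyond the annotated 3' end. It had 23, 45 and 76 counts in bulk, 0, 115 and 0 in GFP-medium and 1827, 201 and 0 in GFP-negative libraries. The GFP-negative libraries stood above and below bulk, and neither comparison passed (edgeR adjusted p = 0.920 and 0.666).

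A few guides were more frequent in sorted cells than in bulk, but none passed the test against bulk. All 3 GFP-negative libraries exceeded all 3 bulk libraries for 2 far guides and 1 near guide. The far guide at chr9:110932084-110932106 had 65, 67 and 11 counts in bulk and 3253, 537 and 972 in GFP-negative libraries, which is 395 ± 254 and 2548 ± 2420.5 CPM (SD, n = 3). The mean was 6.44-fold higher (edgeR adjusted p = 0.640, DESeq2 adjusted p = 0.0943), and its GFP-medium counts were 38, 0 and 768. Against GFP-medium its GFP-negative mean was 4.27-fold higher (edgeR adjusted p = 0.648, DESeq2 adjusted p = 0.751). The far guide at chr9:110927608-110927630 had 49, 41 and 26 counts in bulk, 0, 3 and 208 in GFP-medium and 404, 589 and 683 in GFP-negative libraries. These last 3 lay close together, at 866 ± 236 CPM against 327 ± 84.4 CPM in bulk, 2.65-fold higher (edgeR adjusted p = 0.863). Against GFP-medium the mean was 5.52-fold higher (edgeR adjusted p = 0.570).

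The near guide of this kind, chr9:110938339-110938361, lies 1258 bp beyond the 3' end. It had 19, 31 and 56 counts in bulk, 4, 3 and 11 in GFP-medium and 1889, 715 and 337 in GFP-negative libraries. Its mean was 4.98-fold higher in GFP-negative cells than in bulk (1542 ± 1348 against 309 ± 187 CPM, edgeR adjusted p = 0.623, DESeq2 adjusted p = 0.0584) and 22.6-fold lower in GFP-medium cells (edgeR adjusted p = 0.117). Between the gates, the GFP-negative mean was 113-fold higher, called with DESeq2 (adjusted p = 0.00203) and not with edgeR (adjusted p = 0.179).

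High counts more often came from 1 library. The far guide with the most counts in a sorted library, chr9:110927589-110927611, had 5769 in GFP-negative replicate 1, 0 in replicates 2 and 3, 103, 0 and 0 in GFP-medium and 31, 11 and 35 in bulk. It overlaps the guide at chr9:110927608-110927630, which was present in all 3 GFP-negative libraries. The near guide with the most, chr9:110936009-110936031, had 6286, 440 and 0 in GFP-negative, 101, 0 and 0 in GFP-medium and 73, 53 and 18 in bulk libraries. Neither passed in any comparison with bulk (edgeR adjusted p of at least 0.657).

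Among guides seen in all 3 GFP-negative libraries, the highest mean belonged to chr9:110929213-110929235, with 5181, 608 and 290 counts there, none in GFP-medium and 58, 56 and 28 in bulk. Its GFP-negative value was 8.16-fold above bulk with an SD larger than the mean (3254 ± 4495 against 399 ± 122 CPM, edgeR adjusted p = 0.497), and GFP-medium was at least 56.7-fold lower than bulk (adjusted p = 0.0268). The far guide at chr9:110931764-110931786 had 19, 251 and 2420 counts in GFP-negative, 0, 47 and 0 in GFP-medium and 25, 62 and 83 in bulk libraries. In the near interval, chr9:110938825-110938847 had 1276, 143 and 839 in GFP-negative, 138, 0 and 1644 in GFP-medium and 110, 126 and 83 in bulk. The guide at chr9:110938782-110938804 had 839, 1037 and 18 in GFP-negative, none in GFP-medium and 29, 18 and 17 in bulk libraries (at least 25.9-fold lower in GFP-medium cells, adjusted p = 0.0362). It was at least 135-fold higher in GFP-negative than in GFP-medium cells (edgeR adjusted p = 0.179, DESeq2 adjusted p = 1.97e-04). For chr9:110931764-110931786 that difference was 35.1-fold (edgeR adjusted p = 0.338, DESeq2 adjusted p = 0.110). The mean of chr9:110938825-110938847 was 1.08-fold lower.

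Guides seen in all 3 GFP-medium libraries were the rarest class, 3 far and 7 near. The far ones were chr9:110932729-110932751 (55, 307 and 923 counts in GFP-medium, 877, 170 and 1 in GFP-negative, 24, 73 and 107 in bulk), chr9:110928347-110928369 (254, 20 and 7, then 0, 432 and 0, then 8, 82 and 17) and chr9:110927936-110927958 (28, 10 and 212, then 1341, 0 and 220, then 12, 41 and 11). None differed from bulk beyond the spread of its libraries (edgeR adjusted p of at least 0.777).

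Of the 7 near guides seen in all GFP-medium libraries, chr9:110938824-110938846 had the highest mean there. It had 518, 159 and 677 counts in GFP-medium, 88, 119 and 107 in GFP-negative and 112, 80 and 69 in bulk libraries. That is 1016 ± 551, 162 ± 16.6 and 740.4 ± 169 CPM (SD, n = 3), so this guide was present in every library at a level near bulk in GFP-medium cells, and neither difference from bulk passed (edgeR adjusted p = 0.871 and 0.727). The guide shifted from it by 1 bp, chr9:110938825-110938847, had a higher GFP-medium mean (1319 ± 2031 CPM) but no count in replicate 2. The next 2 of the 7 were chr9:110936897-110936919 (522, 30 and 618 counts in GFP-medium, 183, 176 and 98 in GFP-negative, 81, 62 and 40 in bulk) and chr9:110936232-110936254 (488, 2 and 13, then 345, 47 and 0, then 72, 42 and 38).

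Single libraries above bulk were common, repeats were not. In GFP-negative cells, 107 of 659 far guides exceeded every bulk library in 1 library, 15 in 2 and 2 in all 3, and of 366 near guides 60, 10 and 1 did. In GFP-medium cells it was 52, 0 and 0 far and 28, 4 and 0 near guides. Among the 2883 other positioned guides, the counts were 724, 205 and 47 in GFP-negative and 468, 129 and 29 in GFP-medium cells.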

How the data were processed

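The table analysed holds counts per guide as deposited by the authors for the 9 Tdgf1 libraries, whole numbers without normalization. Which program made the counts is not given in the sources, and positions are on mm10, per the submitters' processing notes. Intervals are copied unchanged, and no source says if their first base is 0 or 1. The guides' sequences were not used here. The placeholder guide, 0.0198% to 11.3% of counts, was left out of totals and tests.

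CPM and shares were computed from total guide counts. Guides and sums over 1-kb tiles were tested with edgeR 4.0.16 in R 4.3.3 (robust quasi-likelihood F test, 2-sided, all 9 libraries in 1 fit). Guides were filtered with filterByExpr (minimum count 10 at the median library total, so fewer counts in bulk) and scaled by TMM. Tiles with at least 5 guides were scaled by total counts. Calls have a Benjamini-Hochberg adjusted p under 0.05 over all guides or tiles tested. Alternatives were DESeq2 1.42.0 (poscounts size factors), limma-voom (limma 3.58.1), other scalings, no filter, and each library left out. Interval shares, detection and ratios between groups of guides were compared with exact permutation tests (scipy 1.17.1), the ratios having been added after the data were seen. Detection was thinned by the hypergeometric expectation. The fits were tested on counts simulated from the bulk shares, without the absence of guides from sorted libraries seen here. Calls that rest on absence were therefore not tested by it.

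In the labels a replicate number marks 1 replicate of the reporter line. Deviations of same-numbered libraries from their population means correlated across 3918 guides with r = 0.40 to 0.48 between GFP-negative and GFP-medium, 0.08 to 0.15 between GFP-negative and bulk, and 0.08 to 0.13 between GFP-medium and bulk. The labels were followed, and values with the number as a block are given where they change a call.

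Named guides, per interval, are any called higher, the 3 largest folds called lower in either sorted population, the 3 highest means among guides in all 3 libraries of a sorted population, those with all sorted libraries above bulk, the most counted in a sorted library, those nearest the interval ends and the 2 most abundant in bulk. A fold against 0 counts uses 3 counts per library and was ranked at that bound. The intervals, groups of guides and rules were chosen with earlier results of these data known.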

Additional observations from a re-analysis of the deposited data

How the results depend on the processing

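No interval share ratio or detection difference changed sign under the alternatives run. Single tiles did: the 2 called ones, at 110931000 and 110932000, in GFP-medium against bulk (0.05 and 0.21 with a trimmed mean over tiles), and others only where they were not called. The count of guides called lower in GFP-negative against bulk (222) became 0 with the replicate block, 0 with limma-voom and 488 with limma-voom and sample quality weights, an alternative chosen after seeing the data. Over all 3172 tested guides the count was 705 and became 0, 0 and 1750. Leaving out 1 library gave 136 to 401 guides of the 2 intervals. In GFP-medium against bulk their count (379) became 0 with limma-voom and 579 with sample quality weights, beside 0 and 2195 of all tested guides. Leaving out 1 library gave 0 to 516 there. At an unadjusted p under 0.05 limma-voom had 197 and 274 of these guides lower, beside 623 and 920 of all tested guides. Between GFP-negative and GFP-medium edgeR called 0, whereas DESeq2 called 11 lower and 73 higher, limma-voom 1 higher and limma-voom with sample quality weights 2 higher. Over all tested guides these 4 counts were 44, 300, 1 and 8. The replicate block moved no other count of calls by more than 1.5 times. Among the 11 tiles in GFP-medium against bulk, it added the one at 110926000 and lost the one at 110932000.

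The 9 tiles called lower in GFP-medium against bulk became 3 with a trimmed mean over tiles and 3 with a total without promoter and GFP-targeting guides, and leaving out 1 library gave 4 to 11. For GFP-negative against bulk leaving out 1 library gave 0 to 3 tiles called lower, and for GFP-negative against GFP-medium 2 to 5 called higher.

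With promoter and GFP-targeting guides out of the total, the log2 ratios of the far interval became -0.38 (GFP-negative against bulk) and -0.93 (GFP-medium against bulk), and those of the near interval -0.22, -0.52 and, between the gates, 0.30. Without the most counted guide of each library the near interval's ratios to bulk became -1.02 and -2.02. The difference in detection between GFP-medium and bulk was -63.0 percentage points when at least 5 counts were asked for. Why the tools and libraries differ was not tested. Depth limits the statement for single guides: the median bulk level of a guide was 139.8 to 247 CPM in the 11 tiles, and an absent guide gives only a bound.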
